A study of Rattus norvegicus with 6 samples.

Results

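The plus strand of the rat mitochondrial chromosome from 1 to 2660 (rn6) carried 27, 25 and 28 peaks in the 3 SYNCRIP libraries. These 80 peaks, of 12583 in the 3 lists together, are every plus-strand peak that lies wholly within that stretch, and no peak crossed its end. They made up 0.700% ± 0.288 of a list but 32.4% ± 4.7 of its mitochondrial peaks and 63.7% ± 2.5 of the summed score of those mitochondrial peaks (SD, n = 3 for each). The minus strand of the same stretch had 0 peaks in all 3 lists, and the first minus-strand peak of the chromosome began at 6861, 13881 and 12901 in replicates 1, 2 and 3.

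The series measured where SYNCRIP touches RNA by iCLIP, a method that fixes proteins to RNA with ultraviolet light, pulls the protein down with an antibody and sequences the RNA fragments that come with it. All 6 samples are cytoplasmic RNA of primary cortical neurons from Sprague-Dawley rats, cultured to day 6 in vitro on 10 cm plates and irradiated with UV-C at 300 mJ/cm2. Of these, 3 were precipitated with an anti-hnRNPQ monoclonal antibody and 3 with an IgG1 isotype control. The labels give no other treatment or genotype, and the design text calls the replicates biological without naming animals or cultures. Peaks of the IgG group were not analysed here, and no value below has the background of the precipitation taken off or set beside it.

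SYNCRIP, or hnRNP Q, belongs to the hnRNP proteins and has roles in the transport, stability and translation of mRNA, and it is found in the cytoplasm and in RNA granules of neuronal processes. The start of the mammalian mitochondrial genome holds the ribosomal RNA genes in a fixed order: a phenylalanine tRNA, the 12S rRNA, a valine tRNA, the 16S rRNA and a leucine tRNA. The 12S rRNA is the RNA core of the small subunit of the mitochondrial ribosome, and the 16S rRNA, which holds the peptidyl transferase centre, is that of the large subunit. They are transcribed together on a long precursor, and the tRNAs between them are cut out to free the rRNAs. Both rRNAs are among the most abundant RNAs of a mitochondrion, and they reside inside the organelle. RNA abundance was not measured in these files, and its part in any value below was not tested.

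No rn6 gene annotation was used, so the gene ends inside the stretch were not checked, and no sequence of it is printed. The stretch was divided into sections at a line of the 20-nt grid on which all peaks lie. The upstream section has 53 bins and is where the 12S rRNA is expected, and the downstream section, 1061 to 2660, has 80 bins and is where most of the 16S rRNA is expected. No peak crossed the line between them. The lists held 5687, 4163 and 2733 peaks with lowest scores of 32, 26 and 20. A score is the authors' whole number for one peak, whose meaning is not given in the sources used here. It is therefore compared only within a list, as a rank or as a percentile, the percentage of the peaks of that list that score lower.

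The score profile was dominated by a pair of adjacent peaks in the upstream section. The peak at 281 to 380 had the same 5 bins in every library and scored 2558, 1903 and 829 in replicates 1, 2 and 3. It ranked 3, 2 and 3 in the respective lists. It was thus the top peak of the stretch in each library and alone held 45.1%, 43.4% and 30.2% of the summed score of the peaks there. The second peak of the stretch began at 401 in each library, behind a single empty bin, and scored 745, 707 and 369. It reached to 580 in replicates 1 and 3 and to 560 in replicate 2, and its rank in the lists was 8, 5 and 5. With every bin given the score of its peak, the pair held 68.0%, 68.6% and 63.6% of the summed bin score of the stretch. That sum weights a peak by its width, and with each score counted once per peak the pair held 58.2%, 59.6% and 43.7%.

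**Figure D1:**
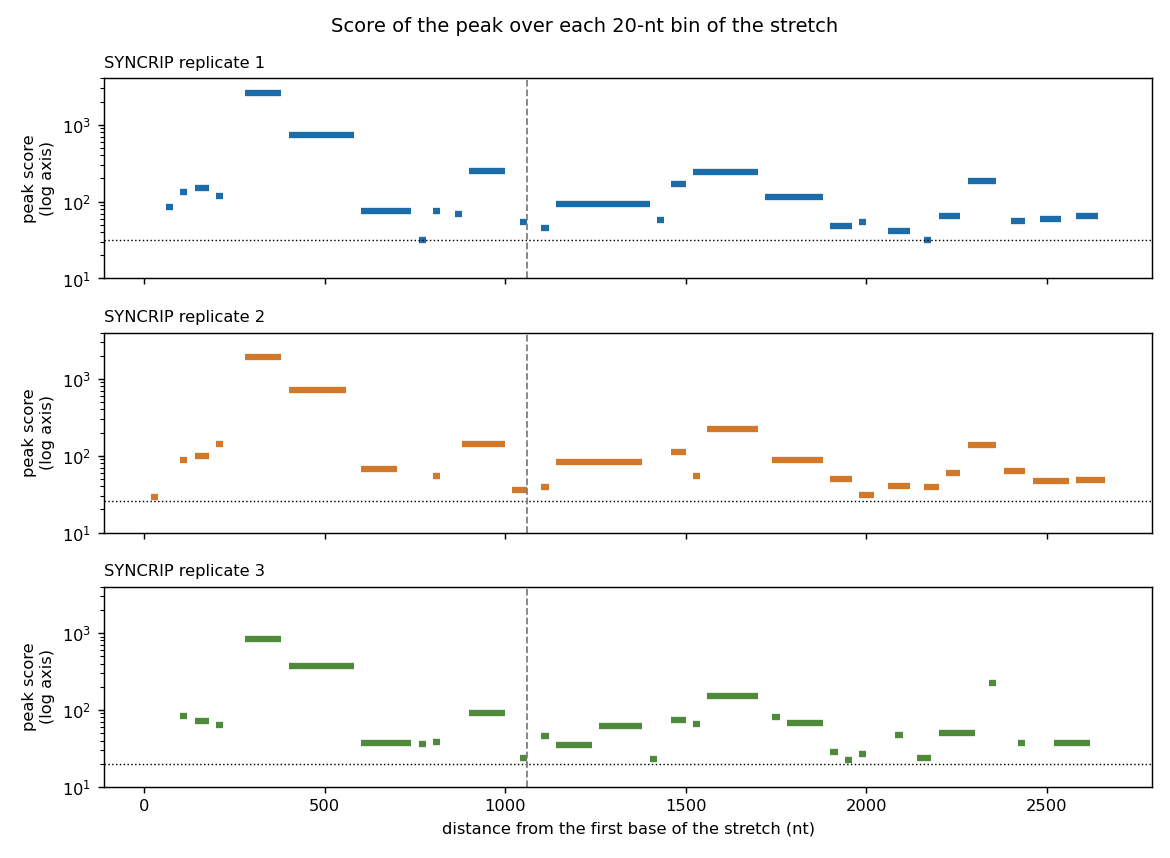
Score of the peak over each 20-nt bin, on a log axis, against the distance from the first base of the stretch in nt, with 1 panel per SYNCRIP library. Each coloured segment marks bins under a peak, the dotted line is the lowest score of that list and the dashed line divides the upstream from the downstream section; the peak of the highest score (2558, 1903 and 829) has the same place in the 3 panels.

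The 5' end of the stretch, where the phenylalanine tRNA is expected, had few peaks. The first 20 nt were empty in every library. A peak at 21 to 40 was found in replicate 2 alone, with a score of 29, and one at 61 to 80 in replicate 1 alone, with a score of 85. These positions thus agreed in no pair of libraries, and replicate 3 had no peak before 101.

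From 101 onward 3 narrow peaks preceded the dominant pair, and each had identical coordinates in all 3 libraries. The peak at 101 to 120 scored 135, 88 and 84. The one at 141 to 180 scored 150, 100 and 72. The one at 201 to 220 scored 120, 142 and 64. Their percentiles lay between 94.3 and 98.7 in all 3 lists, so these narrow peaks were in the top decile of each list. The bins between 221 and 280, just before the dominant peak, were empty in all 3 libraries. These 60 nt were the longest run that all 3 libraries left empty together, and single libraries had longer gaps.

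Behind the dominant pair the scores were lower up to the end of the upstream section, with an isolated rise. The wide peak at 601 to 740 (to 700 in replicate 2) scored 75, 67 and 37, and the single bin at 801 to 820 scored 75, 54 and 38. The peak ending at 1000 scored 247, 142 and 91, with percentiles of 99.3, 98.7 and 97.9. It began at 901 in replicates 1 and 3 and at 881 in replicate 2. The last peak of the section ended with its last bin in every library and scored 54, 36 and 24, with percentiles of 66.8, 49.7 and 32.6. A single bin at 761 to 780 was found in replicates 1 and 3 with scores of 32 and 36, and one at 861 to 880 in replicate 1 alone with a score of 70.

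The downstream section opened with an empty run of 40 nt, 1061 to 1100, in all 3 libraries. This run lies near the place where the valine tRNA is expected between the rRNAs. The bin at 1101 to 1120 followed with scores of 46, 39 and 46. The widest peak of the stretch in replicates 1 and 2 came next, at 1141 to 1400 with a score of 94 and at 1141 to 1380 with a score of 83. In replicate 3 it was divided into a peak at 1141 to 1240 with a score of 35 and another at 1261 to 1380 with a score of 61.

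The highest scores of the downstream section lay in 2 places, ahead of its middle and toward its 3' end. The region at 1521 to 1700 had top scores of 246, 221 and 150. It was 1 peak in replicate 1, while in replicates 2 and 3 a gap of 1 bin set a peak at 1521 to 1540 apart from one at 1561 to 1700. The neighbours of this region were the peak at 1461 to 1500, identical in all 3 libraries with scores of 168, 113 and 75, and the region at 1721 to 1880, with top scores of 114, 87 and 82. The top score of each of these 3 regions was at or above percentile 94.7 in each library, and the separate peak at 1521 to 1540 in replicate 2 was at 80.9. The part of the downstream section from 1461 to 1880 thus held a run of high peaks in each library, well below the dominant upstream pair in rank.

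The region at 2201 to 2360 was the other high place, and here replicate 3 differed from the others in form. Replicates 1 and 2 had a peak of 4 bins at 2281 to 2360, scoring 183 and 139, which were the fifth and the sixth score of the stretch. Replicate 3 had a single bin at 2341 to 2360 that scored 221, the third score of its stretch and rank 9 in its list. The other bins of that peak were in replicate 3 covered by a peak at 2201 to 2300 with a score of 50 or were empty. In all 3 libraries the peak ended at 2360.

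Between and after these places scores were lower. The regions at 1901 to 1960, 1981 to 2020, 2061 to 2120 and 2141 to 2200 had top scores between 24 and 55, and their percentiles ran from 0 to 87.5. The region at 2061 to 2120 scored 41, 40 and 47, which placed it at percentiles 37.5, 60.9 and 87.5, so its place in the list differed widely between libraries. The region at 2381 to 2440 scored 56, 64 and 37, and that at 2461 to 2660, at the 3' end of the stretch, had top scores of 65, 48 and 37. Replicate 2 alone had a peak reaching 2660, and the last peak of replicate 1 ended at 2640 and that of replicate 3 at 2620.

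The mean number of peaks per kb was similar in the sections, and the coverage difference between them changed sign between libraries. The upstream section had 12, 10 and 10 peaks, or 10.1 ± 1.1 per kb, and the downstream section 15, 15 and 18, or 10.0 ± 1.1 per kb (SD, n = 3). Peaks covered 66.0%, 60.4% and 62.3% of the 53 upstream bins and 71.2%, 72.5% and 58.8% of the 80 downstream bins. Replicates 1 and 2 thus had the higher coverage downstream and replicate 3 upstream. The mean difference of -4.61 percentage points, upstream minus downstream, was smaller than its spread over libraries (SD 7.84, n = 3, p = 0.50, two-sided exact sign-flip permutation test). With 3 libraries this test cannot go below 0.25, and over the 4 tests made here the adjusted p was 0.50.

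The score, by contrast, lay mostly upstream. The upstream section held 77.2%, 76.6% and 73.0% of the summed bin score in replicates 1, 2 and 3, against 39.8% of the bins. The excess of 35.8 ± 2.2 percentage points (SD, n = 3) was positive in 3 of 3 libraries, with the smallest p the test allows (p = 0.25, adjusted p = 0.33, two-sided exact sign-flip permutation test). With each score counted once per peak the upstream section held 76.6%, 74.6% and 60.0%. The excess of the bin score, which weights a peak by its width, rested on the dominant pair. Without the peak at 281 to 380 the upstream share was 58.8%, 58.9% and 58.3% against 37.5% of the remaining bins. Without both peaks of the pair it was 28.7%, 25.5% and 25.9% against 32.8% of the bins, a mean deficit of -6.09 percentage points in place of an excess. This turn depended on the weighting by width. With each score counted once per peak, the upstream share without the pair stayed above 32.8% in replicates 1 and 2 and was below it in replicate 3.

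**Figure D2:**
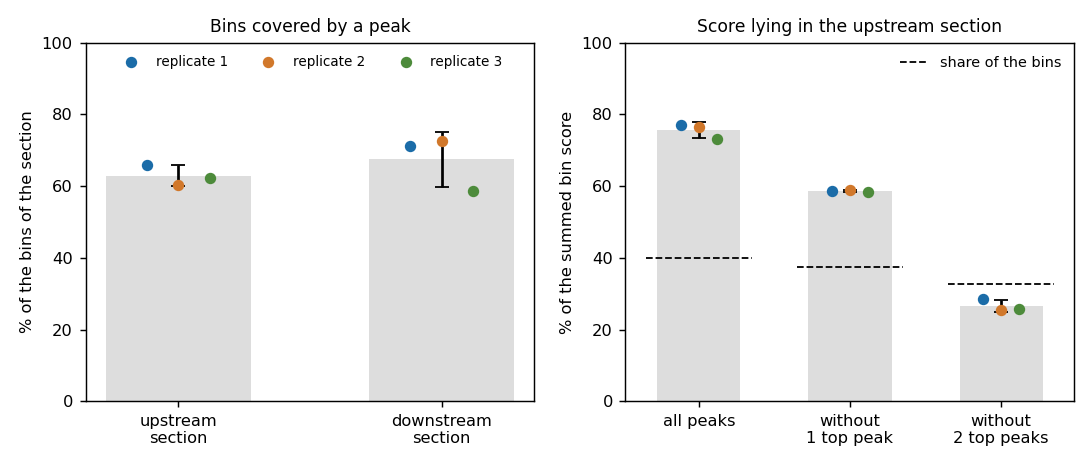
Left, percentage of the 20-nt bins of each section that a peak covered; right, percentage of the summed bin score that lay in the upstream section with all peaks, without the peak at 281 to 380, and without that peak and the one at 401 to 580. Points are libraries, bars the mean, error bars the SD (n = 3) and dashed lines the share of the bins; the share passes from above the dashed line (73.0% to 77.2%) to below it (25.5% to 28.7%).

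Median percentiles were higher upstream too, with the dominant pair included. The median percentile of a peak was 92.3, 95.6 and 95.2 upstream and 73.3, 80.9 and 87.1 downstream, so the upstream value was the higher in every library. Upstream these medians are over only 12, 10 and 10 peaks, so the pair bears on them. Without the pair, the middle upstream peaks lay at 84.9 and 89.1 in replicate 1 and at 89.2 and 94.9 in replicate 2. These were above the downstream median of the same library. In replicate 3 they lay at 78.2 and 94.3, on both sides of the downstream median, with their midpoint slightly below it. Peaks 1 bin wide numbered 7, 4 and 5 upstream and 4, 2 and 10 downstream. Replicate 3 had the most divided downstream section, with 10 of its 18 peaks a single bin wide. Score rose with width only loosely, with a Spearman rho across peaks of 0.52, 0.44 and 0.37 over the 27, 25 and 28 peaks, which share a library and in part a neighbourhood.

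Gaps were short in both sections. Upstream there were 12, 10 and 10 runs of empty bins, of which 8, 5 and 6 were a single bin, and downstream 16, 15 and 19, of which 10 were a single bin in each library. The longest was 60, 100 and 100 nt upstream and 60, 80 and 80 nt downstream. The longest gaps lay at 701 to 800 in replicate 2 and 1 to 100 in replicate 3 upstream, and at 2001 to 2060, 1381 to 1460 and 2001 to 2080 (the last matched in length by 2441 to 2520) downstream in replicates 1, 2 and 3. The longest upstream gaps of replicate 1 were 1 to 60 and the common one at 221 to 280. Those of replicates 1 and 3 thus overlapped at the start of the stretch and again from 2001, while those of replicate 2 lay elsewhere.

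Empty bins were often the same bins in the 3 libraries. Of the 133 bins, 28 had no peak in any library, 15 upstream and 13 downstream, and they formed 23 runs. Only 4 of these common runs were longer than 1 bin: 221 to 280, 821 to 860, 1061 to 1100 and 2021 to 2060. The other 19 were single bins, among them the first of the stretch and 381 to 400 between the dominant peaks.

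**Figure D3:**
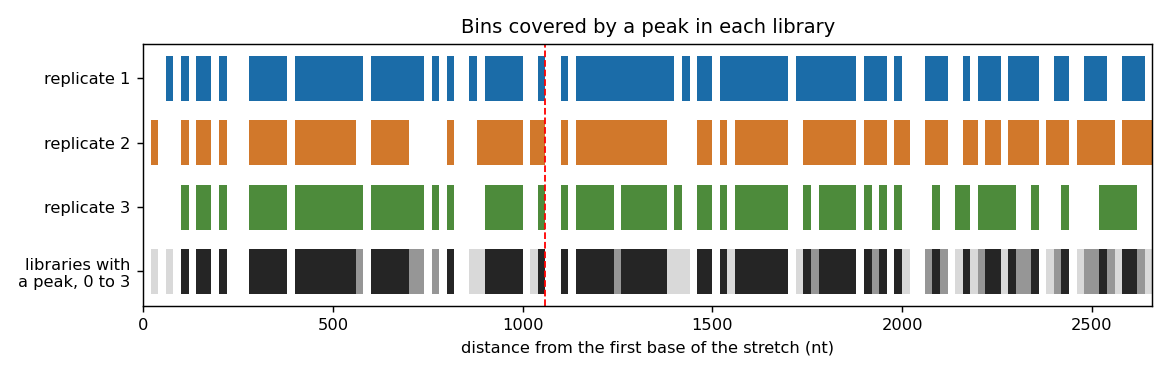
Bins covered by a peak along the stretch, against the distance in nt from its first base, with a row per library and a bottom row shaded by the number of libraries with a peak (white 0, black 3). The dashed line divides the sections; of the 133 bins, 70 are black and 28 white.

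The libraries placed peaks over many of the same bins. Of the 133 bins, 70 (52.6%) had a peak in all 3 libraries, 29 upstream and 41 downstream. Another 17 bins had a peak in 2 libraries and 18 in 1. Of the bins with any peak, 76.3% upstream and 61.2% downstream had one in every library. Overlapping peaks merged into 27 regions, of which 21 had peaks of all 3 libraries, 1 of 2 and 5 of a single library. Upstream, 9 of 13 regions were of all 3 libraries and downstream 12 of 14. Where peaks cover this much of a stretch they overlap often wherever they lie, so these counts describe the lists and carry no test.

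Peak ends were more often shared exactly upstream. Of the 21 regions common to the 3 libraries, 7 had identical coordinates in each, 5 of them upstream and 2 downstream. A common region 1 bin wide has identical coordinates by construction, which covers 3 of those upstream and 1 downstream. None of the 9 upstream regions was divided into several peaks in any library, while 6 of the 12 downstream ones were. A region 1 bin wide cannot be divided. The median width of the common regions was 40 nt upstream and 60 nt downstream. Over the stretch, peaks began at 44 positions, of which 13 were used by all 3 libraries, and ended at 43, of which 14 were.

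The order of the scores along the stretch was similar in the 3 libraries. The Spearman rho of the bin scores over the 133 bins, empty bins counted as 0, was 0.84 for replicates 1 and 2, 0.82 for 1 and 3 and 0.79 for 2 and 3. Upstream, over 53 bins, the values were 0.86, 0.98 and 0.88 for the same pairs, and downstream, over 80 bins, 0.82, 0.66 and 0.69. Every pair thus had a higher rho upstream than downstream. Over the bins with a peak in both libraries of a pair the mean rho was 0.93. Top scores of the 21 common regions gave 0.94, 0.89 and 0.90. Neighbouring bins share peaks, so these correlations are descriptions without a p.

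The first 10 regions by mean percentile over the 3 libraries were 6 upstream and 4 downstream ones. In order they were 281 to 380, 401 to 580, 1521 to 1700, 2201 to 2360, 881 to 1000, 1461 to 1500, 141 to 180, 101 to 120, 201 to 220 and 1721 to 1880. Their mean percentile ranged from 99.9 to 95.6. The ranking itself fixes that these percentiles are high in each library. The region at 2141 to 2200 was at percentile 0 in replicate 1, where its score of 32 was the lowest of the list, at 58.7 in replicate 2 and at 32.6 in replicate 3. The 5 regions of a single library were 21 to 40, 61 to 80, 861 to 880, 1401 to 1420 and 1421 to 1440, with scores of 29, 85, 70, 23 and 57. Of these, the peaks at 61 to 80 and 861 to 880 were at percentiles 89.1 and 82.3 of the replicate 1 list, so a single-library peak was not always a low one. Peaks that only touch were not merged. The peak at 861 to 880 touches a replicate 2 peak that starts at 881. The one at 1401 to 1420, of replicate 3, touches replicate 1 peaks on both sides.

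**Figure D4:**
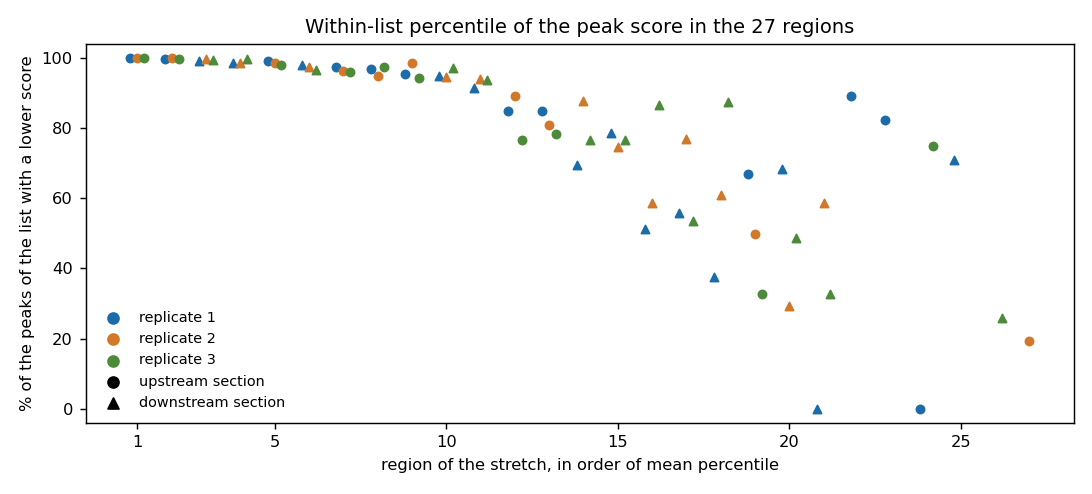
Percentage of the peaks of the list that score lower than the top peak of a region, for the 27 regions in order of their mean percentile, with a point for each library that had a peak. Circles are upstream and triangles downstream regions; the first 10, placed first by these values, lie at 94.3 or above in every library and the others spread down to 0.

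The stretch differed from the rest of the mitochondrial plus strand in the density, width and rank of its peaks. The rest, taken from 2661 to the last mitochondrial peak end at 15380, is expected to carry mainly the mRNAs of respiratory chain subunits and the tRNAs that punctuate them. Peaks covered 69.2%, 67.7% and 60.2% of the bins of the stretch and 12.1%, 12.1% and 7.08% of the 636 bins of the rest. The difference was 55.2 ± 2.0 percentage points (SD, n = 3) and had the same sign in 3 of 3 libraries (p = 0.25, adjusted p = 0.33, two-sided exact sign-flip permutation test). The stretch had 10.0 ± 0.6 peaks per kb and the rest 4.11 ± 0.70 (SD, n = 3). Peaks were not spread evenly over the rest, which held an empty run of 2820 nt, 9261 to 12080, in all 3 libraries. With the rest taken only up to that run, the coverage difference was 51.6 ± 1.3 percentage points (SD, n = 3).

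Median score percentiles in the rest lay closer to those of nuclear peaks than to those of the stretch in each library. The median percentile was 84.9, 87.8 and 88.5 in the stretch and 51.2, 60.9 and 48.7 in the rest, and nuclear peaks had 48.7, 46.3 and 48.7. The difference between the stretch and the rest was 33.5 ± 6.4 percentile points (SD, n = 3), higher in 3 of 3 libraries (p = 0.25, adjusted p = 0.33, two-sided exact sign-flip permutation test). The highest score of the rest was 138, 147 and 109, and 7, 3 and 4 peaks of the stretch exceeded it. Peaks in the top decile of the list made up 43.7% ± 2.9 of the stretch and 6.59% ± 3.65 of the rest (SD, n = 3).

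Peaks of the stretch were also wider. Single-bin peaks made up 40.7%, 24.0% and 53.6% of them, 77.6%, 77.2% and 92.9% of the rest and 75.6%, 77.3% and 78.4% of nuclear peaks. The widest peak was 260, 240 and 180 nt in the stretch and 80, 80 and 40 nt in the rest. Width was not peculiar to the stretch, since nuclear peaks reached 460, 380 and 340 nt.

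A nuclear window of the same length came near the stretch in coverage. In replicate 1 the fullest window of 2660 nt, on chromosome X minus at 115099861 to 115102520, had 1840 nt under peaks, as many as the stretch. In replicates 2 and 3 the fullest windows lay on the plus strand of chromosome 1, at 264069421 to 264072080 and 264068861 to 264071520. They had 1620 and 1400 nt under peaks, against 1800 and 1600 nt in the stretch. Dense coverage was therefore shared with nuclear sites in replicate 1, and in the other libraries the stretch had the higher value.

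**Figure D5:**
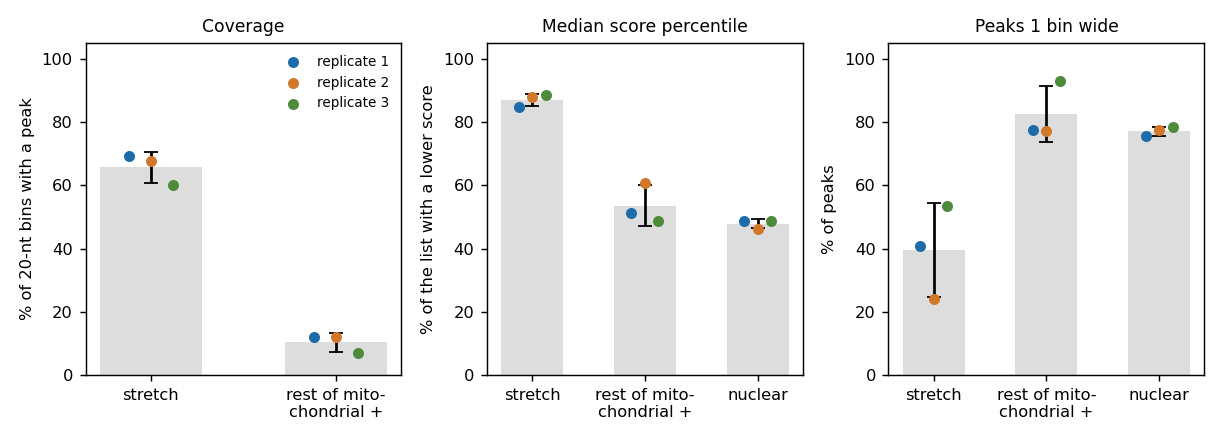
Coverage of the 20-nt bins, median within-list percentile of the peak score and percentage of peaks 1 bin wide, for the stretch, the rest of the mitochondrial plus strand and, in the last 2 panels, nuclear peaks. Points are libraries, bars the mean and error bars the SD (n = 3); the stretch lies above the rest in coverage and percentile and below it in single-bin peaks in each library.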

How the data were processed

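Data were the deposited peak lists of 3 SYNCRIP iCLIP libraries. Per the labels' file names, the authors found peaks with Piranha in bins of 20 nt, with a list for each library. The aligner STAR and the build rn6 come from the submitters' processing notes. Not given in the sources used here are the threshold of the caller, how duplicates were treated and whether IgG reads entered the calls. The unit of the deposited values is a score, a whole number per peak whose meaning is not given, so scores were used within a list only. Sequencing depth is unknown, and the number of peaks in a list is the only measure of yield. An unreadable entry of replicate 1 (1 row, end before start) was left out.

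Positions are 1-based on rn6. Each bin received the score of the peak over it, or 0. Peaks of the lists that overlap by at least 1 bp were merged into regions, and a region takes the top score of each library. Regions named first were the 10 with the highest mean percentile, a library without a peak counting as 0, and gaps named were empty runs of at least 40 nt, with others added after their values were seen. Differences were tested over the 3 libraries with two-sided exact sign-flip permutation tests, Benjamini-Hochberg adjusted over 4 tests. No label names the animals or cultures, so such a p measures the spread between these samples only. Functions were tested on simulated data. Members and measures were chosen with earlier results of these data known. Python 3.11.15, numpy 2.4.6, scipy 1.17.1 and matplotlib 3.10.9 were used.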

Additional observations from a re-analysis of the deposited data

How the results depend on the processing

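Of 36 alternatives, 3 of them added after the data were seen, 29 kept the direction of a tested difference, a count within 1.5 times or a mean correlation within the SD over pairs; with 3 libraries no test could reach 0.05. The coverage difference between sections, -4.61 percentage points, became 0.015 with the stretch divided at 1340, and ranged from -8.67 (without replicate 3) to -0.849 (without replicate 2) with 1 library left out. The upstream excess of the bin score, 35.8 percentage points, was 30.5 with the score counted once per peak and 21.2 without the highest peak. The excess of the bin score turned to -6.09 without the 2 highest peaks. Both lie upstream and together hold most of the bin score, so a fall was built in, but the sign was not. Regions with peaks of all 3 libraries numbered 21, 18 with a reciprocal overlap of 50%, 15 with scores of at least 1.5 times the lowest of the list, and 5 when peaks up to 20 nt apart were joined, because most gaps are 1 bin. The mean rho between bin profiles, 0.82, was 0.72 with the score divided by the bins of the peak, 0.93 over bins with a peak in both libraries, 0.74 as Pearson r of log2(score + 1), and 0.79 to 0.84 with 1 library left out. No paired analysis was possible because peaks of the IgG samples with the same numbers were not analysed here. A bin without a peak is not shown to be unbound, since depth is unknown.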
